A study of Homo sapiens with 2 samples.

Results

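Partially methylated bins shared by both lines were 100 kb stretches of the autosomes in which the DNMT3A mutant AML cell line OCI-AML3 and the DNMT3A wild-type AML cell line AML5 both had low and similar DNA methylation. They were chosen by their measured level, which was the mean, over CpG-poor sites, of the share of reads that called a CpG dinucleotide methylated. A CpG-poor site had at most 10 other CpG dinucleotides within 500 bp and more than 5 reads in both lines, and a bin needed at least 50 such sites. Bins below 60% in both lines, with the lines at most 10 percentage points apart, were kept. Of 26390 bins that could be evaluated, 1271 met the rule (4.82% of bins), and they spanned 127.1 Mb and held 431877 CpG-poor sites. Because the rule used the levels of both lines, the levels and their difference between the lines are given below as a description, without a test.

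The data came from whole-genome bisulfite sequencing, in which unmethylated cytosines are read as thymine and methylated cytosines as cytosine. OCI-AML3 carries a heterozygous R882C mutation of DNMT3A, AML5 (labelled OCI-AML5 in its record) is DNMT3A wild type, and both are established human acute myeloid leukemia lines grown in the same medium (the growth records of both name DMEM), with no treatment named in the labels. Each genotype was represented by 1 line and each line by 1 library. No value had a replicate, and the DNMT3A genotype and all other differences between the lines cannot be told apart. The tables held 902802339 calls for OCI-AML3 and 894828667 for AML5.

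Partially methylated domains are long stretches of chromosomes in which methylation falls between the fully methylated state of most of the genome and the unmethylated state of CpG islands. They are known from cultured and tumor cells, and they tend to be poor in active genes, to replicate late and to lie at the nuclear periphery. DNMT3A adds methyl groups to unmethylated DNA, and DNMT1 copies methylation to the new strand after replication. CpG dinucleotides that stand alone and are flanked by A or T on both sides are known to lose methylation most readily in such domains.

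The flanking bases were not part of the rule, and the spread of levels inside a bin is easiest to see at single sites. From each of the 3 longest runs of adjacent bins that met the rule, the following lines show the lowest solo site with A or T on both sides and the highest solo site with G or C on both sides, among sites with 20 to 100 reads in both lines. A solo site has no other CpG within 35 bp. Sites were ranked by the mean level of both lines, and of sites with equal means the first along the chromosome is shown. Each sequence is the + strand of the GRCh37 reference, 122 bases long, and lies in no annotated exon and outside every protein-coding gene. The capitals mark the CpG and the base on either side of it.
Chromosome 18, 26139528-26139649: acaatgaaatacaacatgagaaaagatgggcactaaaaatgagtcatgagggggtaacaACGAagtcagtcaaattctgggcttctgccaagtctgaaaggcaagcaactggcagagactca
Chromosome 18, 27177174-27177295: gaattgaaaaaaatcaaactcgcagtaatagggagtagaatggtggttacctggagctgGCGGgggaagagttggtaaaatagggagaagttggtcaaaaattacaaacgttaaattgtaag
Chromosome 1, 105774668-105774789: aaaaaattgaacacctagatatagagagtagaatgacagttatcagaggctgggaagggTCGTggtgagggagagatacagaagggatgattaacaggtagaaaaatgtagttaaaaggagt
Chromosome 1, 105802603-105802724: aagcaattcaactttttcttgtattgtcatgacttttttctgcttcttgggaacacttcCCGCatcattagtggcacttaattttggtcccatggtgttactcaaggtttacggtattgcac
Chromosome 13, 68666900-68667021: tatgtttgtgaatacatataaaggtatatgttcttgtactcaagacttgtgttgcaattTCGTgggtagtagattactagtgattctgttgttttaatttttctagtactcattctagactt
Chromosome 13, 68730148-68730269: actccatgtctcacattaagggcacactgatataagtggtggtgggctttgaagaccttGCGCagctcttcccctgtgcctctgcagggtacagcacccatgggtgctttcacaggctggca

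The ACGA site on chromosome 18 was methylated in 0 of 58 reads in OCI-AML3, which allows a share of up to 5.17%, and in 0 of 44 in AML5, which allows up to 6.82%. The GCGG site of the same run was methylated in 42 of 42 reads in each line. On chromosome 1, the TCGT site had 0 of 29 reads in OCI-AML3 (up to 10.3%) and 0 of 34 in AML5 (up to 8.82%), whereas the CCGC site had 40 of 41 and 37 of 37. On chromosome 13, the TCGT site had 0 of 22 (up to 13.6%) and 0 of 21 (up to 14.3%), and the GCGC site had 27 of 27 and 34 of 35. These limits cover counting error only. The sites are the extremes of their runs, which held 341, 254 and 217 eligible sites of the A or T kind and 142, 110 and 94 of the G or C kind. A site without methylated reads could also carry a C-to-T change in the DNA of the lines, which bisulfite reads cannot tell from an unmethylated cytosine, and this was not tested.

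Across the 1271 bins, the lowest level in OCI-AML3 was 30.4%, the median 49.2% and the highest 59.9%. In AML5 the lowest was 38.3%, the median 52.3% and the highest just under the 60% limit. The level was lower in OCI-AML3 in 931 bins and higher in 340, with a median difference of −3.82 percentage points (OCI-AML3 minus AML5). The spread was wider in OCI-AML3, with lower and upper quartiles of 45.3% and 53.6% against 49.7% and 55.0% in AML5. In the median bin the SD over its CpG-poor sites was 35.5 percentage points in OCI-AML3 and 34.6 in AML5, over a median of 347 sites. Over all evaluated bins the medians were 72.2% in OCI-AML3 and 82.0% in AML5.

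**Figure D1:**
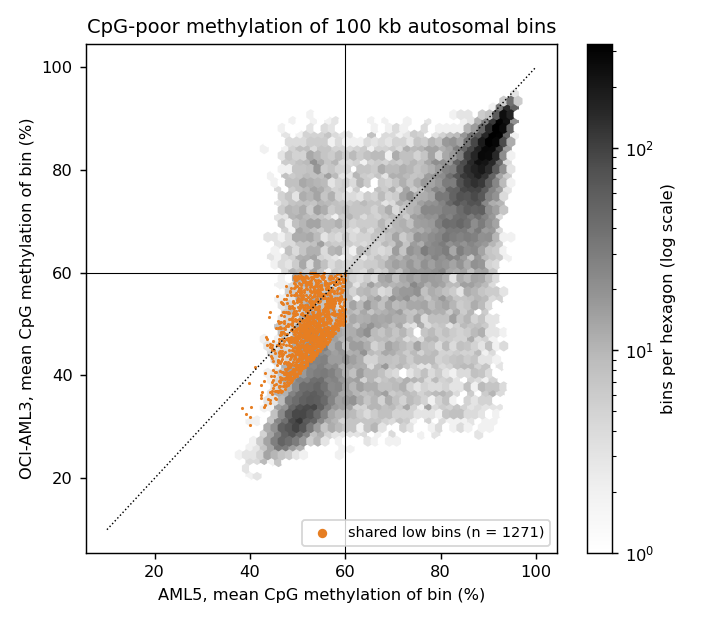
Each evaluated autosomal 100 kb bin by its mean methylation over CpG-poor sites in AML5 (horizontal axis, %) and OCI-AML3 (vertical axis, %), as a grey density on a log scale, with the 1271 bins that met the rule in orange, lines at 60% and a dotted line of equal levels. The orange bins fill the band within 10 percentage points of equality below 60% and lie at the upper edge of a larger cloud of bins that were lower in OCI-AML3.

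The band was a minor part of what was low in both lines. Below 60% were 9462 bins of OCI-AML3 and 6871 of AML5, and the 5430 bins low in both made up 57.4% of the former and 79.0% of the latter. The 1271 bins were 23.4% of those 5430. In the other 4159 bins low in both lines the difference was larger than 10 percentage points, and OCI-AML3 was the lower line in 4142 of them. A further 4032 bins were low in OCI-AML3 only and 1441 in AML5 only, and 7848 were high in both, with levels of 80% or more and at most 10 percentage points apart.

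The limits of the rule cut through continuous values. The bins just inside the 60% limit in OCI-AML3 had 59.95% ± 33.3 (SD over 364 sites), 59.95% ± 33.6 (322 sites) and 59.93% ± 34.8 (351 sites), and the nearest bins outside it had 60.02% ± 33.5 (471 sites), 60.04% ± 33.8 (206 sites) and 60.06% ± 35.6 (417 sites). In AML5 the bins just inside lay at 59.98%, 59.97% and 59.96%, and those just outside at 60.07%, 60.07% and 60.09%. At the limit on the difference, the nearest bins inside differed by −9.99, −9.98 and 9.97 percentage points, and those outside by −10.004, −10.007 and −10.04. These distances were smaller than the standard errors of the bin means, which were 1.54 to 4.11 percentage points over sites.

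The 5 bins with the lowest mean of both lines showed how far down the bins reached. The lowest lay on chromosome 10, from 42500001 to 42600000, next to the centromere, with 30.4% in OCI-AML3 and 39.97% in AML5 over 80 sites. Its read depth was 57.9 times that of the median autosomal bin in OCI-AML3 and 43.4 times in AML5, and the part of this depth in its level was not tested. Its neighbor from 42400001 to 42500000 had ordinary depth, 0.774 and 0.921 of the median, and levels of 32.4% and 39.2% over 402 sites. Next came chromosome 19 from 28000001 to 28100000, with 31.9% and 39.97%, which held no annotated protein-coding gene, lncRNA or pseudogene. The bin on chromosome 12 from 54300001 to 54400000, with 33.6% and 38.3%, held 7 protein-coding TSSs, most of them of the HOXC cluster. The bin on chromosome 21 from 18600001 to 18700000, with 33.8% and 40.1%, held only a pseudogene. In all 5 bins OCI-AML3 was the lower line.

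The low bin means were made of sites of every level. Pooled over the bins, 29.9% of the 431877 CpG-poor sites lay below 20% in OCI-AML3, 40.4% between 20% and 80%, and 29.7% above 80%. In AML5 the shares were 26.1%, 41.5% and 32.4%. The most filled 10-point classes were the outer ones, since 22.1% of sites in OCI-AML3 and 18.1% in AML5 lay at 0 to 10%, and 19.4% and 20.5% at 90 to 100%. In the bins high in both lines, 66.2% of sites in OCI-AML3 and 78.1% in AML5 lay at 90 to 100%, and 15.2% and 8.27% lay between 20% and 80%. The share of sites between 20% and 80% in the median bin was 39.3% (95% interval of the median 38.9–39.7%) in OCI-AML3 and 41.4% (41.1–41.6%) in AML5, against 27.4% and 18.6% over all other bins. In the other bins low in both lines it was 32.2% (OCI-AML3) and 41.2% (AML5), so in AML5 the share was close to that of low bins at large. These intervals treat bins as independent, which neighboring bins are not, and no culture was sequenced more than once.

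**Figure D2:**
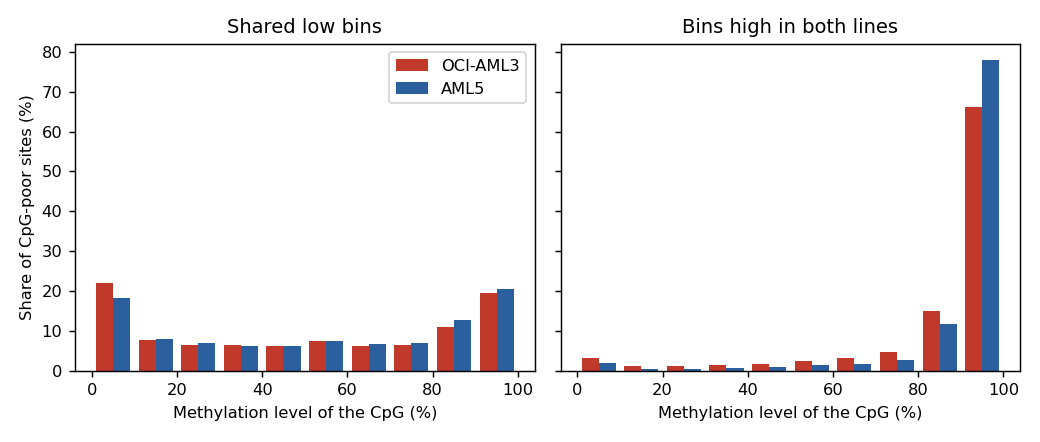
Share of CpG-poor sites (vertical axis, %) in each 10-point class of methylation level (horizontal axis, %) for OCI-AML3 (red) and AML5 (blue), in the bins that met the rule (left) and in the bins high in both lines (right). On the left both ends and the middle are filled, with 22.1% and 18.1% of sites at 0 to 10%, and on the right most sites lie at 90 to 100%.

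The same sites tended to be low or high in both lines. Of all CpG-poor sites in the bins, 18.2% lay below 20% in both lines, 22.8% between 20% and 80% in both and 20.7% above 80% in both. Opposite ends were rare, since 1.40% of sites were below 20% in OCI-AML3 and above 80% in AML5, and 0.613% the reverse. Across the 431877 sites the levels of the lines had a Pearson coefficient r of 0.696 and a Spearman coefficient of 0.695, a description across sites that share their bins, base context and 1 library per line. In the bins high in both lines Pearson r was 0.6003 and the Spearman coefficient 0.338 over 2624065 sites. The other bins low in both lines had an r of 0.706 and a Spearman coefficient of 0.724 over 1383756 sites, so these values were not particular to bins with similar means. Among solo sites of the bins, r was 0.630 for those with A or T on both sides (92863 sites) and 0.614 for those with G or C on both sides (44037 sites).

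The base on either side of a solo CpG went with its level in every bin that could be compared. In the 1253 of 1271 bins with at least 10 solo sites of each kind, sites with A or T on both sides had a median level of 27.0% in OCI-AML3 (interval 26.4–27.5%) and 28.4% in AML5 (28.1–28.8%). Sites with 1 strong neighbor, G or C, had 46.0% and 48.9%, and those with G or C on both sides 60.7% (60.1–61.3%) and 62.9% (62.5–63.4%). The level with A or T on both sides was below that with G or C on both sides in 1253 of 1253 bins in OCI-AML3 and in 1253 of 1253 in AML5. This order was also found in 98.7% and 94.2% of all 25768 evaluated bins with enough sites. The median gap was −33.3 percentage points in OCI-AML3 (−34.0 to −32.9) and −34.2 in AML5 (−34.7 to −33.7), against −22.0 and −14.7 in all other bins and −10.6 and −4.38 in bins high in both lines. A gap of this size was found in other low bins too. It was −30.4 (OCI-AML3) and −34.6 (AML5) in the 4122 other bins low in both lines, −32.8 in OCI-AML3 in bins low in that line only, and −34.2 in AML5 in bins low in AML5 only.

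**Figure D3:**
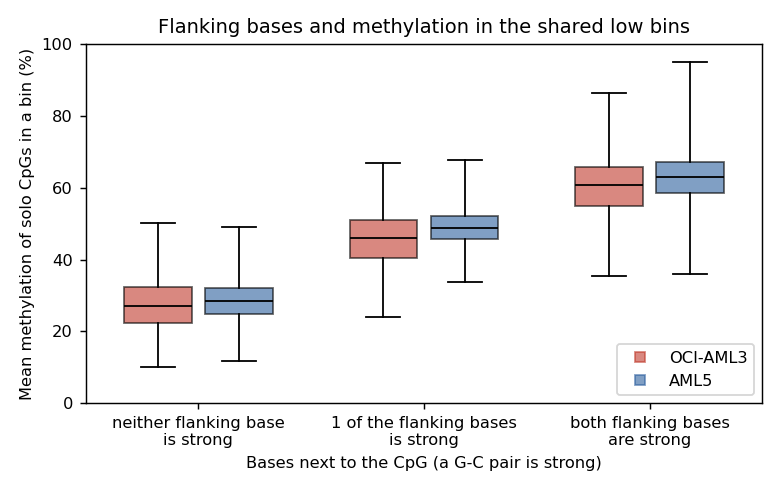
Mean methylation of the solo CpG dinucleotides of a bin (vertical axis, %) by the number of flanking bases that are G or C (horizontal axis), for OCI-AML3 (red) and AML5 (blue) over 1253 bins that met the rule. Boxes run from the first to the third quartile with a line at the median, and whiskers reach the lowest and the highest bin. The medians climb from 27.0% and 28.4% to 60.7% and 62.9%.

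Joined over both strands, the 10 possible pairs of flanking bases ranked in the same order in both lines. TCGA was lowest, at 23.2% in OCI-AML3 and 24.8% in AML5 over 18262 solo sites. ACGA followed with 27.3% and 28.4%, and ACGT with 29.9% and 30.9%. The highest were CCGC, with 62.4% and 63.8%, and GCGC, with 65.9% and 65.7% over 7222 sites. The mean number of reads per site differed little between these contexts, 24.5–27.2 in OCI-AML3 and 29.9–32.2 in AML5. In the bins high in both lines the 10 contexts spanned only 77.5–91.3% in OCI-AML3 and 85.8–92.7% in AML5. Below 20% lay 54.9% of the solo sites with A or T on both sides in OCI-AML3 and 53.5% in AML5, against 18.3% and 14.9% of those with G or C on both sides.

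Local CpG number went with the level as well. In the bins that met the rule, sites with no other CpG within 500 bp averaged 36.4% in OCI-AML3 and 38.2% in AML5 (2691 sites), and the mean was higher with each added CpG up to 55.7% and 59.4% at 10 others. The rule used these sites and their level, but not their order. Beyond its limit the mean was 60.8% and 65.1% at 11 to 20 others and 66.4% and 71.5% at 21 to 40. With over 40 others it was 62.1% and 63.5%. Such a climb was not particular to these bins. Where both lines were low but differed by more than 10 percentage points, OCI-AML3 averaged 20.9% at 0 others and 41.9% at 10. AML5 averaged 37.9% and 59.2% there. Where only OCI-AML3 was low, its means at these counts were 32.5% and 54.5%. Where only AML5 was low, AML5 averaged 39.0% and 61.0%. In bins high in both lines the mean stayed near 83.6–86.4% in OCI-AML3 and 89.0–90.6% in AML5 from 0 to 10 others and was 26.2% and 30.1% with over 40 others, the range in which CpG islands lie.

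**Figure D4:**
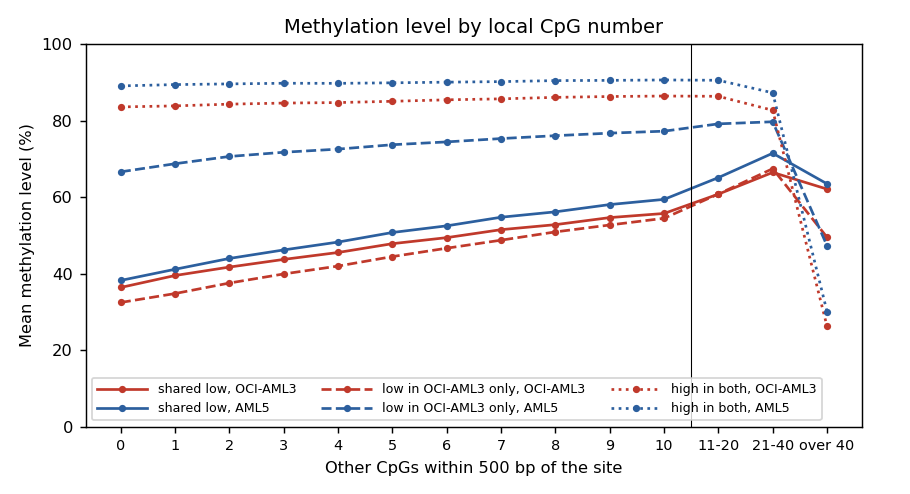
Mean methylation level (vertical axis, %) of CpG dinucleotides by the number of other CpG dinucleotides within 500 bp (horizontal axis), for OCI-AML3 (red) and AML5 (blue), in bins that met the rule (solid), bins low in OCI-AML3 only (dashed) and bins high in both lines (dotted). The vertical line marks the limit of CpG-poor sites. The solid lines climb from 36.4% and 38.2% to 66.4% and 71.5% at 21 to 40 others, and the dotted lines are nearly level until they reach 26.2% and 30.1%.

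CpG-dense sites, with more than 10 others within 500 bp, were outside the rule. The 1258 bins with at least 20 of them had dense sites at a median of 65.3% in OCI-AML3 (64.8–65.8%) and 68.6% in AML5 (68.1–68.9%), against 70.0% and 77.1% in all other bins. The dense level was above the CpG-poor level of the same bin in 97.5% of these bins in OCI-AML3 and 98.6% in AML5, and in 66.8% and 61.6% of all evaluated bins. In the other bins low in both lines the shares were 99.5% and 98.4%. The dense level was lower in OCI-AML3 by at least 10 percentage points in 122 of the 1258 bins (9.70%), where 30.9% of all evaluated bins with enough dense sites were, and higher by as much in 10 bins (0.795%), where 4.28% were. The limit of 10 percentage points on the CpG-poor difference used the same contrast, so nothing is read from these counts.

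Near gene starts the dense sites of these bins were at the level of those in other bins low in both lines. Dense sites within 2000 bp of a protein-coding TSS could be measured in 132 bins, and their median was 58.8% in OCI-AML3 (53.3–62.0%) and 57.9% in AML5 (54.7–60.1%), against 25.8% and 31.0% in 8788 other bins. They were above 66% in both lines in 31 of the 132 bins (23.5%), where 11.6% of all bins with such sites were. They were below 20% in both lines in 3 of 132 (2.27%), where 28.7% of all such bins were. In the 372 other bins low in both lines with such sites, the medians were 58.9% (OCI-AML3) and 59.5% (AML5), with 75 bins (20.2%) above 66% in both and 6 (1.61%) below 20% in both. Dense sites farther from a TSS had medians of 65.5% and 68.8%.

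Promoters, which reached 2000 bp to each side of a gene's most upstream TSS, were also measured. The bins held 254 protein-coding TSSs in 167 bins, or 1.42% of the 17896 in evaluated bins, and 242 promoters had at least 10 CpG dinucleotides read in both lines. Their median was 56.4% in OCI-AML3 (50.4–59.5%) and 58.0% in AML5 (55.6–60.2%), against 30.2% and 36.9% over the 17650 promoters in all evaluated bins. Above 66% in both lines were 55 promoters (22.7%; 19.5% over all), and below 20% in both were 3 (1.24%; 23.1% over all). All 14 beta protocadherins in the bins and most of the 9 alpha protocadherins, from 1 part of chromosome 5, were among the 55. Such neighboring promoters are not independent. A level lower in OCI-AML3 by at least 20 percentage points was found in 25 promoters (10.3%, against 8.7% of all), and a level higher by as much in 11 (4.55%, against 1.75% of all).

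The promoter of HOXA10, among the largest decreases in OCI-AML3, shows the sequence behind such values. It is printed 5′ to 3′ on the strand of the gene, from GRCh37, with each CpG in capitals. Shown are the 300 bases before the most upstream annotated TSS of the gene.
HOXA10, chromosome 7, 27219881-27220180, − strand: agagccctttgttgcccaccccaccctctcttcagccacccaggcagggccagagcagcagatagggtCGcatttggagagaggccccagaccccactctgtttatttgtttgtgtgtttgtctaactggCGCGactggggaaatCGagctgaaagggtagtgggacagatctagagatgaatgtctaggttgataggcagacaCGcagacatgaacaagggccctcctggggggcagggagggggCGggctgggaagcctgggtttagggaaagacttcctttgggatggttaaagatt

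HOXA10, a homeobox factor of blood progenitors, had 6 CpG dinucleotides in these 300 bases, averaging 1.47% in OCI-AML3 (0 to 5.88%) and 79.7% in AML5 (37.9–100%). Its whole promoter had 2.13% and 63.7% over 100 CpG dinucleotides, and the share of methylated calls was 1.23% in OCI-AML3 (Wilson 95% interval 0.936–1.60%, 4240 calls) and 60.2% in AML5 (58.5–61.8%, 3483 calls).

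The 5 largest decreases in OCI-AML3 were found at HOXA10 and at ENSG00000257184, a gene model that overlaps it, and then at GUCY1A2, HS3ST4 and ARHGAP5. GUCY1A2, a subunit of soluble guanylate cyclase, had 11.04% in OCI-AML3 and 59.4% in AML5. HS3ST4, a heparan sulfate sulfotransferase, had 14.2% and 57.7%, although the run of 8 bins that holds it was at 49.6% and 50.3% over its CpG-poor sites. ARHGAP5, a GTPase-activating protein, had 3.63% and 36.9%. Each of these promoters lay in a bin with similar CpG-poor levels in both lines.

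The 5 largest increases in OCI-AML3 were at OR4M2, GATA4, BARHL2, COL11A1 and HOXC12. GATA4, a transcription factor of heart and gut, was at 72.5% in OCI-AML3 against 42.3% in AML5, over 68 CpG dinucleotides. BARHL2, a homeobox gene of the nervous system, had 80.01% and 52.1% over 273. COL11A1, a fibrillar collagen chain, had 63.0% and 36.1%, and HOXC12 had 59.7% and 34.1%. OR4M2, an olfactory receptor gene with 81.6% and 47.1% over 17 CpG dinucleotides, has near-identical copies, so its level is uncertain.

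The gene list with most TSSs in the bins was that of the cadherins and protocadherins. Of 85 cadherin and protocadherin genes with a TSS in an evaluated bin, 25 (29.4%) had it in a bin that met the rule, where 1.42% of all protein-coding TSSs did, but these 25 lay in only 5 bins. They comprised 9 of 15 alpha protocadherins, 14 of 16 beta protocadherins, CDH2 and CDH12, and 0 of 22 gamma protocadherins. Protocadherins are adhesion molecules by which neurons tell themselves from others. The 9 alpha promoters were at 80.2–92.4% (OCI-AML3) and 63.5–89.1% (AML5), and the 14 beta promoters at 72.0–79.8% and 71.4–86.5%. PCDHA6 had 92.4% and 89.1% over 154 CpG dinucleotides. CDH2, the neuronal cadherin, differed from them with 33.1% in OCI-AML3 and 58.1% in AML5.

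The bins of these clusters show how CpG-poor and dense sites could part. The bin on chromosome 5 from 140500001 to 140600000 held 11 TSSs of beta protocadherins, the most of any bin that met the rule. Its 199 CpG-poor sites had 46.4% in OCI-AML3 and 55.7% in AML5, whereas its 1703 dense sites had 80.2% and 80.9%. The alpha protocadherin bin from 140200001 to 140300000 had 47.5% and 51.8% at CpG-poor sites and 89.8% and 86.4% at dense sites. Its depth was 2.23 times the median bin in OCI-AML3 and 1.40 times in AML5, and that of the beta bin 1.79 and 1.13 times, and the part of depth in these levels was not tested.

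The list of homeobox, T-box, forkhead and SOX genes had 18 of 168 TSSs in the bins (10.7%), in 7 bins. Most of these 18 belonged to HOX clusters. The list was partial, since BARHL2, EMX2, OTX2, GSC, MSX2, EVX1 and TBXT also had a TSS in the bins and were not on it. All 9 HOXC genes were included, with promoters at 15.1–60.2% in OCI-AML3 and 17.4–53.8% in AML5, as were 4 of 11 HOXA genes, 0 of 10 HOXB and 0 of 9 HOXD genes. HOXA9 is also the only gene of the myeloid transcription factor list in the bins (1 of 22). Its promoter was at 0.258% (OCI-AML3) and 31.2% (AML5). Its most upstream TSS, at 27214799, lies inside HOXA10 (27210224 to 27219880), so this promoter is HOXA10 sequence as well. Long gene models that overlap other HOXC genes were also used for HOXC6 (40200 bp) and HOXC4 (39100 bp). Only the most upstream TSS of each gene was measured. HOXA11 had 0.180% and 20.6%, and the promoters of HOXA9, HOXA10, HOXA11 and HOXA13 were all lower in OCI-AML3 by at least 20 percentage points. The HOXA bin, on chromosome 7 from 27200001 to 27300000, met the rule with 59.8% and 58.2% over only 169 CpG-poor sites. Its 2850 dense sites had 20.9% and 31.3%, and 18.9% of its CpG-poor sites in OCI-AML3 lay between 20% and 80%, the lowest share of any of the 1271 bins. PAX1, a factor of vertebral development, had 57.9% and 47.9%.

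Other lists had fewer members in the bins. Taste receptors and defensins had 6 of 69 (8.70%), in 2 bins, and UDP-glucuronosyl and cytochrome P450 enzymes 6 of 75 (8%), in 4 bins. DEFA1, DEFA1B and DEFA3 are near-identical copies, so their values of 37.2–56.3% in OCI-AML3 and 43.1–61.0% in AML5 are uncertain. CYP2E1, an enzyme of ethanol oxidation, had 49.6% and 57.3%. The list of neuronal adhesion and synapse genes had 3 of 42 (7.14%), among which CNTN4 was higher in OCI-AML3, with 82.3% against 58.8%. This list was partial too, since SHANK2, LRRTM3, DLGAP1 and SYN3 also had a TSS in the bins and were not on it. Glutamate, GABA and glycine receptors had 2 of 41 (4.88%), GRIN2A with 48.3% and 39.0% and GRIK1 with 66.6% and 63.4%. The list named voltage-gated channels had 4 of 119 (3.36%), of which KCNJ6 and KCNK1 are potassium channels of other kinds. Olfactory receptors had 12 of 397 (3.02%) in 6 bins, and keratins and their associated proteins 3 of 149 (2.01%) in 1 bin. T, B and erythroid genes had 1 of 19.

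For the remaining lists the counts were small and are read against the 1.42% of all protein-coding TSSs that lay in the bins. KRAB and other zinc fingers had 3 of 504 (0.595%), and ZNF423 among them had 2.66% in OCI-AML3 and 16.8% in AML5. Cytosolic ribosomal proteins had 0 of 63, proteasome subunits 0 of 37, myeloid surface and granule genes 0 of 18, and DNA methylation enzymes and readers 0 of 16. At a background of 1.42%, a count of 0 in lists of this size is not a result about the lists. The list of myeloid surface and granule genes left out the neutrophil granule genes DEFA1, DEFA1B and DEFA3, counted above with the defensins. It also left out FCER1A and CEACAM4. The TSSs of all these genes lay in bins that met the rule. UQCRFS1, a subunit of mitochondrial complex III used by most cells, had a promoter at 6.51% and 13.9% inside a bin that met the rule.

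The bins were poor in genes as a whole. No protein-coding TSS lay in 1104 of the 1271 bins (86.9%, exact 95% interval 84.9–88.7%), against 62.6% of all evaluated bins, and no protein-coding gene body in 778 (61.2%, 58.5–63.9%), against 34.0%. Wholly within gene bodies lay 250 bins (19.7%, 17.5–22.0%), against 21.3%. The shares without a TSS and without a gene body were close to those in the other bins low in both lines, 87.9% and 61.4%. The median GC content was 38.7% against 39.9% in all other bins, and there were 6.64 against 8.26 CpG dinucleotides per kb, 69.4% of them CpG-poor against 57.2%. In the other bins low in both lines these medians were 37.9%, 6.45 and 71.3%.

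Gene bodies, which are usually well methylated, were not above their surroundings here. In the 440 bins with enough sites in a gene body the median of the body was 48.7% in OCI-AML3 and 52.8% in AML5, and outside bodies it was 49.3% and 52.2% in 1008 bins. Where a bin had both, the body was the higher part in 92 of 177 bins in OCI-AML3 (52.0%, 44.4–59.5%) and in 85 of 177 in AML5 (48.0%, 40.5–55.6%). Over all evaluated bins with both, the body was higher in 68.6% and 66.3%. In the other bins low in both lines it was higher in 287 of 502 bins in OCI-AML3 (57.2%) and in 286 of 502 in AML5 (57.0%).

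Bodies of 418 protein-coding genes reached into the bins, and the genes with most such bins were long. CTNNA3, an alpha catenin of cell junctions, spans 1851181 bp of chromosome 10, and 10 of its 20 bins met the rule, at 41.3–52.4% in OCI-AML3 and 49.2–56.3% in AML5, while 6 others were low in AML5 only. CDH18, a cadherin of the nervous system, had 7 of 12 bins, at 44.9–50.3% and 46.9–54.6%, and another 4 were low in OCI-AML3 only. GALNTL6 had 6 of 13 bins and MTUS2, a microtubule-associated protein, 6 of 8. CAMTA1, a calmodulin-binding transcription activator, had 6 of 11, and MGAT4C, a glycosyltransferase, 6 of 10. AGBL1, a carboxypeptidase, had 5 of 10, and SHANK2, a scaffold of synapses, and TSHZ2 had 5 of 7 each. CAMTA1 spanned both states, with 6 bins that met the rule and 3 that were high in both lines.

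Along the chromosomes the bins formed 669 runs of adjacent bins. A single bin made up 379 runs, 254 runs had 2 to 4 bins, and 36 runs had 5 or more and held 239 bins. The longest run, on chromosome 18 from 26100001 to 27700000, had 16 bins at 40.7–57.0% in OCI-AML3 (mean 51.6%) and 44.2–56.2% in AML5 (mean 50.7%), and no protein-coding gene overlapped it. Its mean depth was 0.577 of the median bin in OCI-AML3 and 0.720 in AML5. Runs of 11 bins followed on chromosome 1 from 105600001 to 106700000 (47.4% and 50.8%) and on chromosome 13 from 68600001 to 69700000 (52.1% and 50.6%), also without protein-coding genes.

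Of the other long runs, the run on chromosome 6 from 164700001 to 165700000 had 10 bins at 51.4% and 50.8% and overlapped C6orf118. The run on chromosome 5 from 18900001 to 19800000, which reaches into CDH18, had 9 bins at 50.2% and 50.9%, and that on chromosome 10 from 65900001 to 66800000 had 9 at 45.3% and 52.3%. Runs of 8 bins lay on chromosome 10 from 37300001 to 38100000, with ANKRD30A and ZNF248 (45.1% and 49.6%), and on chromosome 16 from 25500001 to 26300000, with HS3ST4 (49.6% and 50.3%). Runs of 7 bins lay on chromosome 9 from 82800001 to 83500000 (47.7% and 50.1%) and on chromosome 13 from 54700001 to 55400000 (48.3% and 49.8%), the latter at 0.377 of the median depth in OCI-AML3 and 0.8003 in AML5. In each of these 10 runs the solo sites with A or T on both sides averaged 25.2–33.0% in OCI-AML3 and 24.97–29.8% in AML5, and those with G or C on both sides 55.2–64.2% and 59.3–66.2%.

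The runs were mostly parts of longer stretches that were low in either line. Of the 2542 sides of the bins, 1204 faced another bin that met the rule. Of the other 1338 sides, 41.6% faced a bin low in both lines with a difference above 10 percentage points, 24.2% a bin low in AML5 only, 14.8% a bin low in OCI-AML3 only, and 1.35% a bin high in both. The stretch of adjacent bins below 60% that held a given bin had a median length of 7 bins in OCI-AML3 and 9 in AML5, and 41.1% and 48.5% of the 1271 bins lay in stretches of at least 10 bins. For stretches below 60% in both lines the median length was 6 bins. Of the 1271 bins, 27.9% lay in such stretches of at least 10 bins and 121 bins stood alone. Around the 145 runs of 3 or more bins, the median was 50.3% in OCI-AML3 and 52.4% in AML5 in the outermost bin of the run, 60.05% and 55.6% in the first bin outside, and 72.6% and 73.3% at 1 Mb. The level of the bins inside, and that outside bins failed the rule, follow from the rule itself.

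**Figure D5:**
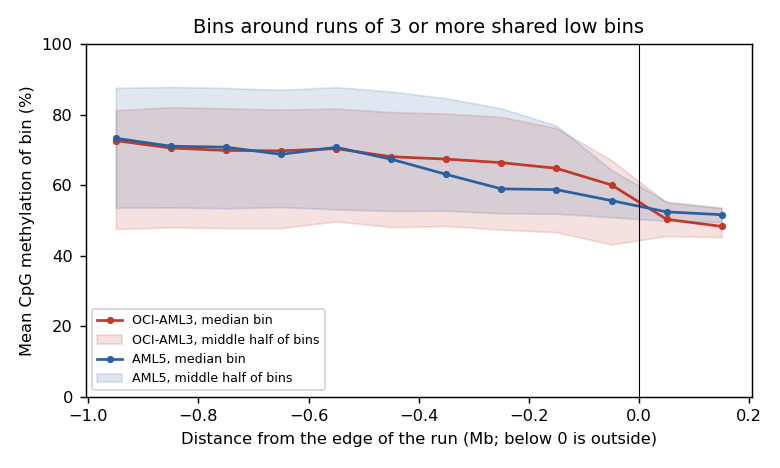
Median bin level over CpG-poor sites (vertical axis, %) by distance from the edge of a run (horizontal axis, Mb, below 0 outside), for OCI-AML3 (red) and AML5 (blue) around 145 runs of 3 or more bins, with shading from the first to the third quartile. The medians step from 50.3% and 52.4% in the outermost bin to 60.05% and 55.6% in the first bin outside and reach 72.6% and 73.3% at 1 Mb.

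Bins were also cut into pieces of 10 kb, pooled over all bins. That most pieces lay below 60% follows in part from the rule. Of the 12272 pieces of 10 kb with at least 10 CpG-poor sites, 84.1% in OCI-AML3 and 82.9% in AML5 were below 60%, and 74.4% were so in both. The median piece had 48.9% (lower and upper quartiles 41.6% and 56.3%) and 52.3% (46.6% and 57.7%). The 5th and 95th percentiles were 31.1% and 67.1% in OCI-AML3 and 37.7% and 65.8% in AML5. At 80% or more were 53 pieces in OCI-AML3 and 11 in AML5, with 3 shared.

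Every autosome held bins that met the rule, from 12 on chromosome 22 to 131 on chromosome 1. As a share of evaluated bins, chromosome 20 had most (9.12%), before chromosomes 10 (7.87%), 13 (7.35%) and 14 (7.30%), and chromosomes 3 (2.31%) and 7 (2.64%) had least. The median level of the bins of a chromosome was 45.2% (chromosome 22) to 51.8% (chromosome 21) in OCI-AML3 and 50.2% (chromosome 19) to 53.7% (chromosome 7) in AML5. Within 2 Mb of an assembly gap of at least 1 Mb lay 70 bins (5.51%, against 2.96% of all evaluated), and within 5 Mb of a chromosome end 72 (5.66%, against 6.12%). In the other bins low in both lines the shares were 6.13% and 7.43%.

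Read depth was below that of the median autosomal bin, at 0.850 of it in OCI-AML3 (0.831–0.870) and 0.916 in AML5 (0.903–0.931) in the median bin, which corresponds to 22.9 and 27.3 calls per CpG. Under 2/3 of the median depth were 281 bins in OCI-AML3 (22.1%, against 13.7% of all evaluated) and 63 in AML5 (4.96%, against 2.55%). Over 1.5 times the median were 64 (5.04%, against 11.9%) and 39 (3.07%, against 4.77%). The median depth in the other bins low in both lines was 0.780 and 0.868, and in bins high in both lines 1.14 and 1.06. The part of depth in the level was not tested. The 167 bins with a TSS had a depth of 1.09 and 1.02 and the 1104 without had 0.820 and 0.900. The levels were 49.2% in OCI-AML3 and 53.8% in AML5 with a TSS and 49.2% and 52.0% without.

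The counts at single sites were tested by Fisher's exact test, with Benjamini–Hochberg adjustment over 24454751 CpG dinucleotides, which measures read sampling between 2 libraries and not the spread between cultures. Of the 431877 CpG-poor sites in the bins, 51234 (11.9%) were lower in OCI-AML3 at an adjusted P-value under 0.05, where 14.7% of all CpG dinucleotides tested were, and 33971 (7.87%) were higher, where 3.86% of all were. Of the 414559 dense sites, 14.1% were lower and 7.69% higher. The rule held the mean difference of a bin to 10 percentage points, so these counts describe how single sites differed inside bins of similar mean, and nothing is read from them against the background.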

How the data were processed

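Whole-genome bisulfite sequencing of OCI-AML3 and AML5 was analyzed from the deposited tables, with 1 library per line. The authors aligned paired-end reads to hg19 with Bismark and called methylation (Bowtie 0.12.8 per the submitters' processing notes), and deposited raw read counts per CpG dinucleotide, methylated and unmethylated, both strands added, without smoothing or normalization. Duplicate removal is not given in the sources used here. The column of methylated counts was identified by the mitochondrial genome, where it held 0.168% and 0.101% of calls. Of the nuclear CpG dinucleotides listed, 99.8% lay on a CG of GRCh37.

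A level was methylated over all calls of a CpG, and a bin level the mean over its CpG-poor sites. Gene models were those of GENCODE release 44 lifted to GRCh37. With a median of 22.9 and 27.3 calls per CpG in the bins, a count of 0 at a single CpG allows shares of up to 13.1% and 11%. Intervals of medians are 95% order-statistic intervals over bins, shares of bins have exact (Clopper–Pearson) intervals and promoter calls Wilson intervals, in which every call counts as independent although 1 read can give several. Fisher's exact test was first tested on simulated data.

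The members and the 16 gene lists were chosen with earlier results of these data known. Named items were the 10 longest runs, the 5 lowest bins and the 3 nearest to each side of each limit, the 10 genes with most member bins, the 5 promoters with the largest decrease, the largest increase, the highest and the lowest level, and up to 4 of each list, the longest genes first. Not all items that meet this rule are reported here. A family of genes within a list was counted after its values were seen. Alternatives covered the reads per CpG, the CpG-poor limit, the bin start, averaging, the level limit and depth. Computations ran in Python 3.11.15, numpy 2.4.6, pandas 2.3.3, scipy 1.17.1, numba 0.67.0 and matplotlib 3.10.9.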

Additional observations from a re-analysis of the deposited data

How the results depend on the processing

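With 1 library per line no value has a spread between cultures, and the intervals given cover counting or bins only. Levels at single CpG dinucleotides rest on a median of 22.9 and 27.3 calls per site. No paired analysis was possible because each line has 1 library. Leaving out CpG dinucleotides in masked repeats was not run, since the reference used here marks no repeats. A value counted as moved when it left the interval of its main value, or, for a count, when it changed by more than 1.5 times; no value changed sign. With at least 10 reads in both lines, 1259 bins met the rule, 1191 of them among the 1271, and no value moved. With bins shifted by 50 kb the dense level in OCI-AML3 moved to 66.01%, and with all calls of a bin pooled to 65.9% (1285 and 1244 bins).

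With at most 5 other CpG dinucleotides within 500 bp, 1434 bins met the rule, 1094 of them among the 1271. In OCI-AML3 and AML5 the dense level moved to 65.98% and 69.1% and the relative depth to 0.903 and 0.947, the share of sites between 20% and 80% in OCI-AML3 to 38.6%, and the CpG-poor sites lower and higher in OCI-AML3 to 23650 and 17210, since fewer sites count as CpG-poor.

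The limit of 50% in place of 60% changed most and left 270 bins. The shares of sites between 20% and 80% were then 38.0% and 40.7%, the dense levels 62.5% and 67.5%, the gaps between solo contexts −34.1 and −34.8 percentage points, and the depths 0.790 and 0.885 in OCI-AML3 and AML5. The median GC content was 38.1% and the share of bins without a TSS 93.0%. Promoters lower and higher by 20 percentage points numbered 3 and 2, and single sites lower and higher 11432 and 5786.

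Without bins of extreme depth, 903 bins were left. The share of sites between 20% and 80% in OCI-AML3 was 38.4%, the dense levels were 64.7% and 68.0%, the depths 0.910 and 0.961, the GC content 39.8%, the share without a TSS 84.7%, and promoters lower and higher numbered 15 and 7. Among the 1104 bins without a protein-coding TSS, an alternative chosen after seeing the data, the depths were 0.820 and 0.900, the dense level in AML5 69.0% and the GC content 38.4%.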
